A study of Mus musculus with 2 samples.

Results

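The expression of 33 genes of the cadherin superfamily was described in single cells of the mouse cerebral cortex at embryonic day (E) 16.5. The members were found by gene symbol among the 32285 genes counted, and each of the 33 matched 1 row. They hold 12 classical and related cadherins (*Cdh2*, *Cdh4*, *Cdh6*, *Cdh7*, *Cdh8*, *Cdh9*, *Cdh10*, *Cdh11*, *Cdh12*, *Cdh13*, *Cdh18* and *Cdh20*), 11 non-clustered protocadherins (*Pcdh1*, *Pcdh7*, *Pcdh8*, *Pcdh9*, *Pcdh10*, *Pcdh11x*, *Pcdh15*, *Pcdh17*, *Pcdh18*, *Pcdh19* and *Pcdh20*), the 3 seven-pass cadherins *Celsr1*, *Celsr2* and *Celsr3*, the giant cadherins *Fat1*, *Fat3*, *Fat4* and *Dchs1*, and the 3 calsyntenins *Clstn1*, *Clstn2* and *Clstn3*. None of them was used to choose cells. The samples were 2 wild-type (WT) libraries, labelled EomesDot, which are the controls of an *Eomes-Cre* line. There was no other genotype or treatment, and the labels give neither the strain nor the number of embryos per library. Cortex was dissociated with papain and captured with the 10x Genomics 3′ v3.1 chemistry, in which a unique molecular identifier (UMI) marks each captured poly(A) RNA molecule. The comparisons were therefore between cell classes, each measured in both libraries.

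Cadherins are calcium-dependent adhesion proteins of the cell surface. Classical cadherins bind cadherins on the neighbouring cell through their outermost repeats and bind catenins, and through them actin, inside the cell. N-cadherin (*Cdh2*) holds the apical junctions of radial glia together and acts in the migration of neurons along them. Type II cadherins such as *Cdh6*, *Cdh8* and *Cdh11* are known for patchy expression by area, layer and nucleus in the forebrain. Non-clustered protocadherins have other cytoplasmic tails and bind more weakly, the Celsr proteins act in planar polarity and axon guidance, Fat4 and Dchs1 are receptor and ligand, and calsyntenins are neuronal and synaptic membrane proteins with cadherin repeats.

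The sequences before the start sites of 4 members are shown because their highest means were in 4 different classes, namely intermediate progenitors (*Cdh8*), upper-layer neurons (*Cdh12*), the oligodendrocyte lineage (*Pcdh15*) and mural cells (*Pcdh18*). For *Cdh8* the second class, layer 5-like neurons, overlapped the highest, and for the other 3 it did not. Each is the 250 bases before a RefSeq start site in GRCm38.p6, on the strand of the gene and from 5′ to 3′. *Cdh8* lies at chr8:99416472-99416721, minus strand, *Cdh12* at chr15:21111202-21111451, plus strand, *Pcdh15* at chr10:73821617-73821866, plus strand and *Pcdh18* at chr3:49757317-49757566, minus strand. Capitals mark the E-box letters CANNTG, the letters CCAAT or their reverse complement ATTGG, and the letters TATAAA or their reverse complement.
Cdh8: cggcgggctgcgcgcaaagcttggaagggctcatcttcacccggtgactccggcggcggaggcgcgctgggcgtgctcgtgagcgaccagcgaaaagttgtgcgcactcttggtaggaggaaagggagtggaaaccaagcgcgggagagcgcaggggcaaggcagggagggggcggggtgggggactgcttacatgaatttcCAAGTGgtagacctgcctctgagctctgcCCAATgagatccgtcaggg
Cdh12: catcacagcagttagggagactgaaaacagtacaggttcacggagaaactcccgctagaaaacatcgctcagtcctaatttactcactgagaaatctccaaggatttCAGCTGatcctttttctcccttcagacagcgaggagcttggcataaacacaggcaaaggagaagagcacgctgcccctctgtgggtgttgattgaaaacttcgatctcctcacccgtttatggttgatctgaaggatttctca
Pcdh15: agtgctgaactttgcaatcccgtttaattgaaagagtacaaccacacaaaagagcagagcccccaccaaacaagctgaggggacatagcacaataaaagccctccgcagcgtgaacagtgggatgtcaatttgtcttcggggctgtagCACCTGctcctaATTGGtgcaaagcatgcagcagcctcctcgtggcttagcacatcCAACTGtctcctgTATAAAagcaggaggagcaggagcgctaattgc
Pcdh18: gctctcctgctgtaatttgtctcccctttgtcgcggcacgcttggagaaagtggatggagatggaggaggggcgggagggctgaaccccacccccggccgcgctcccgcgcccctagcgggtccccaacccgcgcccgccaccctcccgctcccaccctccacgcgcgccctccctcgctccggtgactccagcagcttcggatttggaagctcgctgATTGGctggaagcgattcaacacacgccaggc
The windows of *Cdh8*, *Cdh12* and *Pcdh15* lie wholly inside the annotated span of their genes, whose outer edge is 1195, 662574 and 725590 bases before the start site shown, and that of *Pcdh18* overlaps its gene by 67 bases. The E-box letters were found in the windows of *Cdh8*, *Cdh12* and *Pcdh15*, CCAAT in those of *Cdh8*, *Pcdh15* and *Pcdh18*, and TATAAA in that of *Pcdh15*. RefSeq start sites of 25 members were available in 29 windows. Searched on both strands, with overlaps between motifs allowed, CANNTG was in 44.8% of them and in 66.2% of 32851 windows of all genes. CCAAT was in 55.2% against 33.8%, and TATAAA in 6.90% against 12.4%. These are matches of letters and no measurement of binding.

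The libraries held 46398156 and 64324236 UMIs in 9049 and 13556 barcodes, of which 5966 and 10247 cells were kept, with medians of 5706 and 4938 UMIs. The libraries shared 21 barcodes. Cells were assigned to classes by fixed marker genes, and 53.0% and 48.1% of them entered a class. The 17 classes used held at least 21 cells in each library, from microglia-like cells (21 and 63) to upper-layer neuron-like cells (677 and 1250). Members are given as CPM, the UMIs of the gene scaled to a fixed total of UMIs of the class (counts per 1000000 UMIs), with the value of library 1 before that of library 2 wherever 2 values stand together. CPM of a gene were compared between classes and never between genes. Fold changes are on the log2 scale with their standard error, from edgeR's quasi-likelihood test over all genes with Benjamini-Hochberg adjustment, and a member was called at an adjusted p under 0.05. Values for 1 library alone are differences of log2(CPM + 1) with no test, a scale that understates the change of low members. The labels do not say whether the 2 libraries came from separate embryos, so p-values measure only the spread between these libraries, which may be technical. Erythroid-like cells, which should hold little neural RNA of their own, contained members at 0 to 35.6 CPM in library 1 and 0 to 49.2 CPM in library 2, with medians of 2.38 and 2.89 CPM, and a level near that of the same member in these cells cannot be told apart from free RNA. None of the 8 radial glia (RGC) markers was among the 10 leading genes of the RGC-like class, which was headed by *Ttr*, a gene of the choroid plexus, and the microglia-like class was led by the macrophage genes *Pf4* and *Mrc1*.

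The members differed in where they were detected. In at least 1 class, 32 of 33 members reached 10 CPM in both libraries, and the exception was *Pcdh20*, whose highest mean was 8.23 CPM, in oligodendrocyte lineage-like cells. Of members with low counts, *Celsr3* had a highest mean of 23 CPM and *Clstn3* of 23.7 CPM, against 0 and 1.45 CPM and 0 and 4.34 CPM in erythroid-like cells. *Cdh9* had a highest mean of 40.0 CPM and *Pcdh8* of 42.6 CPM, against 0 and 0 CPM and 2.38 and 5.79 CPM there. There were 14 members at 10 CPM or more in both libraries in at least 12 of the 17 classes and 6 in at most 5. For 25 members the same class was the highest in both libraries, and for 20 the highest class did not overlap the second. By mean CPM, Cajal-Retzius-like cells, early-born reelin-secreting neurons of the marginal zone, were the highest class of 9 members. Layer 6-like neurons followed with 6 and oligodendrocyte lineage-like cells with 4. The second class overlapped the highest for *Clstn2* and *Celsr3* in Cajal-Retzius-like cells. It also did for *Cdh2*, *Pcdh7*, *Pcdh9* and *Fat4* in layer 6-like neurons, so part of this order rests on near ties. Conversely, 17 members had no UMI in either library in at least 1 class. These counts are a description of the levels and carry no test. The matching shares of all genes were not computed, so the counts cannot be read as particular to these members.

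**Figure D1:**
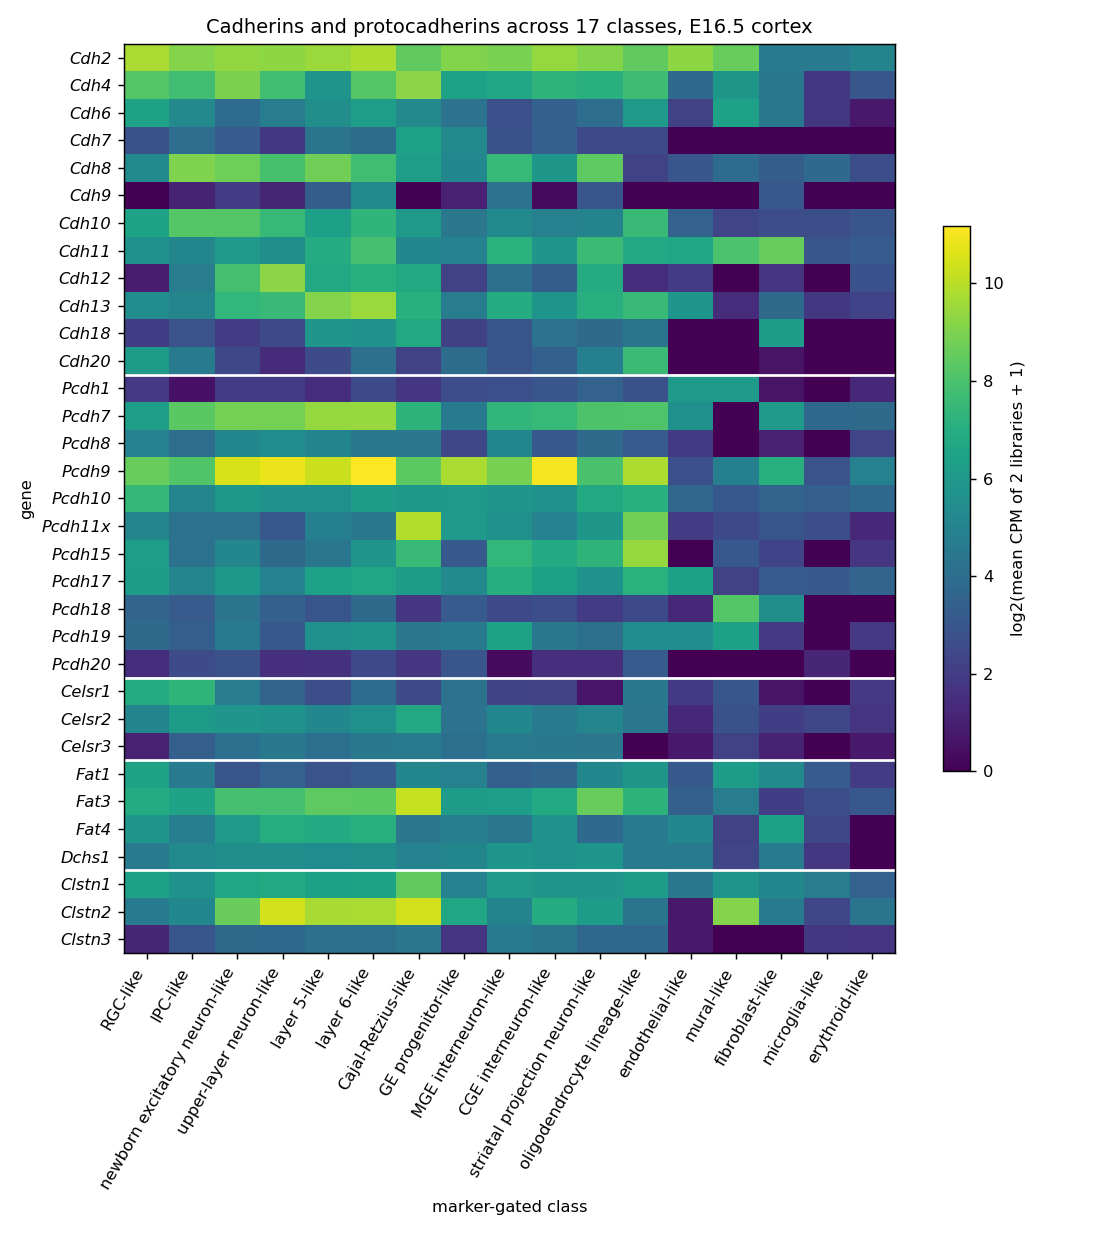
Mean CPM of the 33 members (rows, grouped by role) over 2 libraries in each of the 17 cell classes (columns), as colour on a log2(CPM + 1) scale from dark (low) to bright (high), with white lines between the role groups. In the Cajal-Retzius-like column 9 members have their highest mean, of which Clstn2 and Celsr3 overlap their second class. The microglia-like and erythroid-like columns are dark for nearly all members.

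*Cdh2* was found at 266 CPM or more in every neural class. It stood at 874 and 844 CPM in RGC-like cells, 896 and 869 CPM in layer 6-like neurons and 534 and 522 CPM in cycling progenitors of the ganglionic eminence (GE progenitor-like). Oligodendrocyte lineage-like cells and Cajal-Retzius-like cells had the lowest neural levels, at 437 and 266 CPM and 394 and 314 CPM. Among the non-neural classes *Cdh2* was high in endothelial-like cells, at 597 and 644 CPM, and low in fibroblast-like cells, at 17.6 and 30.5 CPM. *Clstn1*, a cargo adaptor of kinesin-1 that is broadly expressed in neurons, was likewise above 10 CPM in both libraries in all classes but the microglia-like and erythroid-like ones. *Dchs1* lay between 24 CPM in RGC-like cells and 56.9 CPM in striatal projection neuron-like cells over the neural classes, and its highest and second classes overlapped.

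At the other end, several members stood well above every other class in 1 class. *Pcdh11x*, an X-linked protocadherin, was at 947 and 958 CPM in Cajal-Retzius-like cells, against 461 and 417 CPM in oligodendrocyte lineage-like cells and at most 79.7 CPM in any library of the other classes. *Pcdh15*, known as a part of the tip link of sensory hair cells, was at 749.7 and 602 CPM in oligodendrocyte lineage-like cells. *Cdh20* was also highest there, at 203 and 185 CPM, and its second class was RGC-like at 69.8 and 64.9 CPM. *Pcdh17*, which acts in corticostriatal and amygdala circuits, had the same highest class with a smaller lead, at 155 and 127 CPM against 126 and 119 CPM in interneuron-like cells of the medial ganglionic eminence. *Pcdh18* was at 335 and 238 CPM in mural-like cells, the pericytes and smooth muscle cells of vessels, and at no more than 45.4 CPM on average in any other class. The highest values of *Pcdh11x*, *Pcdh15*, *Cdh20* and *Pcdh18* did not overlap those of the second class.

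A run of 5 type II cadherins on chromosome 15 showed how neighbours differed. In GRCm38.p6 *Cdh6* lies at chr15:13028699-13176407, *Cdh9* at chr15:16728550-16857138, *Cdh10* at chr15:18818869-19016206, *Cdh12* at chr15:20448878-21598421 and *Cdh18* at chr15:22548898-23477491. Each had its highest mean in a different class. *Cdh6* was highest in RGC-like cells (79 and 96.2 CPM), where mural-like cells (91.8 and 77.2 CPM) overlapped it. *Cdh9* was highest in layer 6-like neurons (53.4 and 26.6 CPM) and *Cdh10* in intermediate progenitor (IPC)-like cells (378 and 231 CPM). *Cdh12* led in upper-layer neuron-like cells (610.0 and 579.7 CPM) and *Cdh18* in Cajal-Retzius-like cells (96.1 and 122 CPM). The highest and second classes of *Cdh10* overlapped as well, since newborn excitatory neuron-like cells stood at 298 and 289 CPM. *Celsr1*, on the same chromosome at chr15:85898758-86034223, was highest in IPC-like cells.

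**Figure D2:**
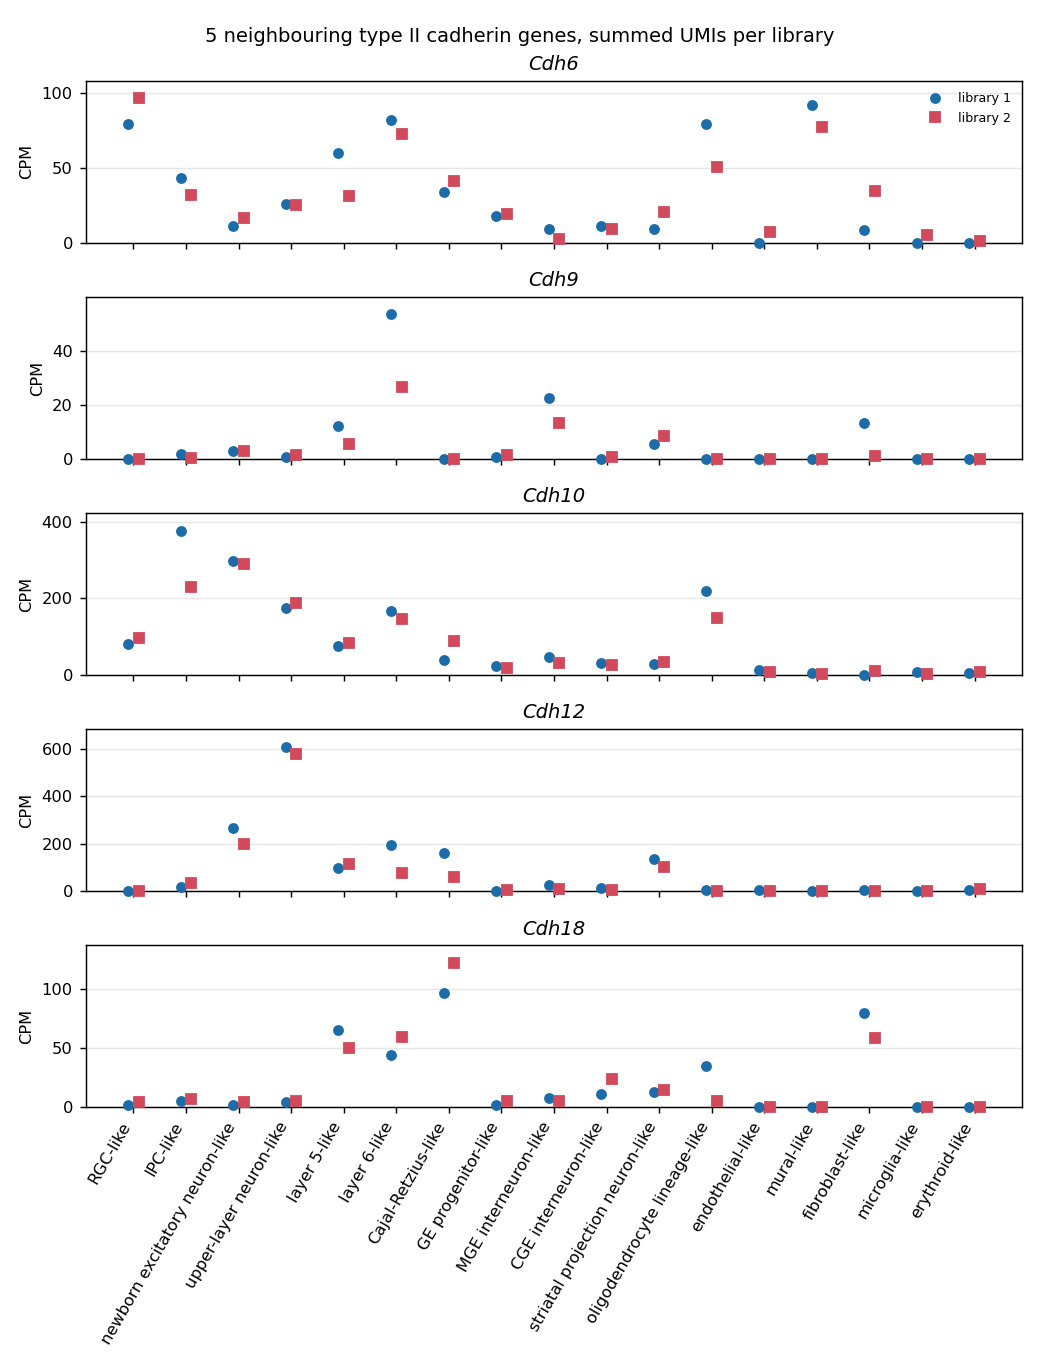
CPM of 5 type II cadherins of chromosome 15 in the 17 classes, 1 panel a gene, each on its own linear axis from 0, with a circle for library 1 and a square for library 2. The highest mean is in a different class in each panel: RGC-like, layer 6-like, IPC-like, upper-layer neuron-like and Cajal-Retzius-like. For Cdh6 and Cdh10 the highest class is not the same in both libraries.

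From RGC-like to IPC-like cells, the *Eomes*-positive basal progenitors, 10 of the 33 members were called higher and 13 lower, against 15.8% and 19.6% of all genes tested. The median log2 fold change of the members was -0.41 and that of all genes -0.04. *Cdh8* went from 45.1 and 33.3 CPM in RGC-like to 584 and 441 CPM in IPC-like cells (log2 fold change 3.74 ± 0.19, adjusted p = 3.44e-22). *Cdh12* was at 0.485 and 1.2 CPM and then at 18 and 32.5 CPM (log2 fold change 4.80 ± 0.69, adjusted p = 1.47e-07). *Cdh10* was at 80.5 and 97.4 CPM against 378 and 231 CPM (log2 fold change 1.77 ± 0.16, adjusted p = 4.12e-13). All 3 are type II cadherins, and in none did the classes overlap. *Pcdh7*, known to interact with a phosphatase through its tail, was also higher in IPC-like cells (65.5 and 84.6 CPM against 356 and 282 CPM, log2 fold change 2.10 ± 0.18, adjusted p = 6.08e-14). The *Cdh8* values of IPC-like cells overlapped those of layer 5-like neurons (479 and 383 CPM), its second class. All 3 seven-pass cadherins were called higher in IPC-like cells by edgeR, and the call of *Celsr1* was lost with DESeq2. *Celsr2* was at 34.4 and 29.3 CPM against 67.1 and 66 CPM (log2 fold change 1.10 ± 0.19, adjusted p = 5.74e-06), the log2 fold change of *Celsr1* was 0.50 ± 0.17, and that of *Celsr3*, at a mean of 9.46 CPM in IPC-like cells, 3.06 ± 0.60. *Cdh7* (1.40 ± 0.40) and *Dchs1* (0.72 ± 0.21), given as log2 fold changes, and *Clstn3* (0.97 and 1.6 CPM against 5.4 and 8.13 CPM) were called higher as well. All 5 newborn excitatory neuron markers were detected in IPC-like cells and summed to 2816 and 2578 CPM, against 211 and 227 CPM in RGC-like and 4502 and 4271 CPM in newborn neuron-like cells, while the 6 IPC markers summed to 1619 and 1587 CPM in IPC-like cells. Their part in these gains was not tested.

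The 13 members called lower were 5 classical cadherins, 5 protocadherins, *Fat1*, *Fat4* and *Clstn1*. *Pcdh10*, which acts in axon growth of the forebrain, was at 166 and 184 CPM in RGC-like and 28.8 and 36.4 CPM in IPC-like cells (log2 fold change -2.38 ± 0.19, adjusted p = 2.58e-15). *Pcdh15* fell from 105 and 45.7 CPM to 15.6 and 20.1 CPM (log2 fold change -1.97 ± 0.29, adjusted p = 2.25e-07), though its 2 values in RGC-like cells were far apart. *Fat1*, known to regulate apical junctions and actin, was lower (83.4 and 87 CPM against 27.6 and 20.6 CPM, log2 fold change -1.81 ± 0.20, adjusted p = 1.14e-10), as was *Cdh20* (69.8 and 64.9 CPM against 21.6 and 26.3 CPM, log2 fold change -1.45 ± 0.28, adjusted p = 5.33e-05). In these 4 genes each RGC-like value was above each IPC-like value. *Cdh6* (-1.21 ± 0.22), *Fat4* (-1.04 ± 0.19), *Pcdh17* (-1.03 ± 0.26) and *Pcdh8* (-0.99 ± 0.28) completed the 8 largest falls on the log2 scale. *Cdh2* stood at 874 and 844 CPM and 617 and 487 CPM in the 2 classes and was called lower, with log2 fold change -0.61 ± 0.13, adjusted p = 0.00014. *Clstn1* (-0.57 ± 0.17), *Cdh11* (-0.56 ± 0.21), *Pcdh9* (-0.41 ± 0.15) and *Cdh4* (-0.40 ± 0.16) were lower by smaller log2 fold changes. With DESeq2, 9 members were higher and 10 lower, and 4 of the lower ones were classical cadherins and 3 protocadherins. The call of *Pcdh17* was among those lost.

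From IPC-like to newborn excitatory neuron-like cells (*Neurod1*-positive, *Eomes*-negative) the balance was the other way, with 18 members called higher and 4 lower, against 12.8% and 11.9% of all genes. The members' median was 0.93 and the all-gene median 0.02. *Clstn2*, a calsyntenin of synapses, rose from 23.4 and 49.7 CPM to 359 and 423 CPM (log2 fold change 3.43 ± 0.22, adjusted p = 1.41e-17). *Cdh12* continued upwards to 267 and 199 CPM (log2 fold change 3.20 ± 0.25, adjusted p = 6.61e-15), *Pcdh9* went from 254 and 309 CPM to 1445 and 1479.6 CPM (log2 fold change 2.43 ± 0.15, adjusted p = 3.2e-18), and T-cadherin (*Cdh13*), which is anchored by a lipid and has no cytoplasmic tail, went from 34.2 and 31.1 CPM to 188 and 144 CPM (log2 fold change 2.41 ± 0.18, adjusted p = 1.5e-15). The groups did not overlap in these 4 genes. *Fat3* (1.53 ± 0.17), *Pcdh19* (1.35 ± 0.32), *Cdh4*, also named R-cadherin (1.29 ± 0.15), and *Fat4* (1.27 ± 0.18) were the next in log2 fold change. The 4 members called lower were *Celsr1* (29.5 and 20.4 CPM in newborn neuron-like cells, log2 fold change -2.61 ± 0.21, adjusted p = 3.44e-14), *Cdh20* (-2.37 ± 0.41), *Fat1* (-1.81 ± 0.32) and *Cdh6* (-1.34 ± 0.29). *Cdh8* and *Cdh10*, high in IPC-like cells, were not called in this step, with log2 fold changes of -0.20 ± 0.15 and 0.04 ± 0.14 (adjusted p = 0.368 and 0.905).

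**Figure D3:**
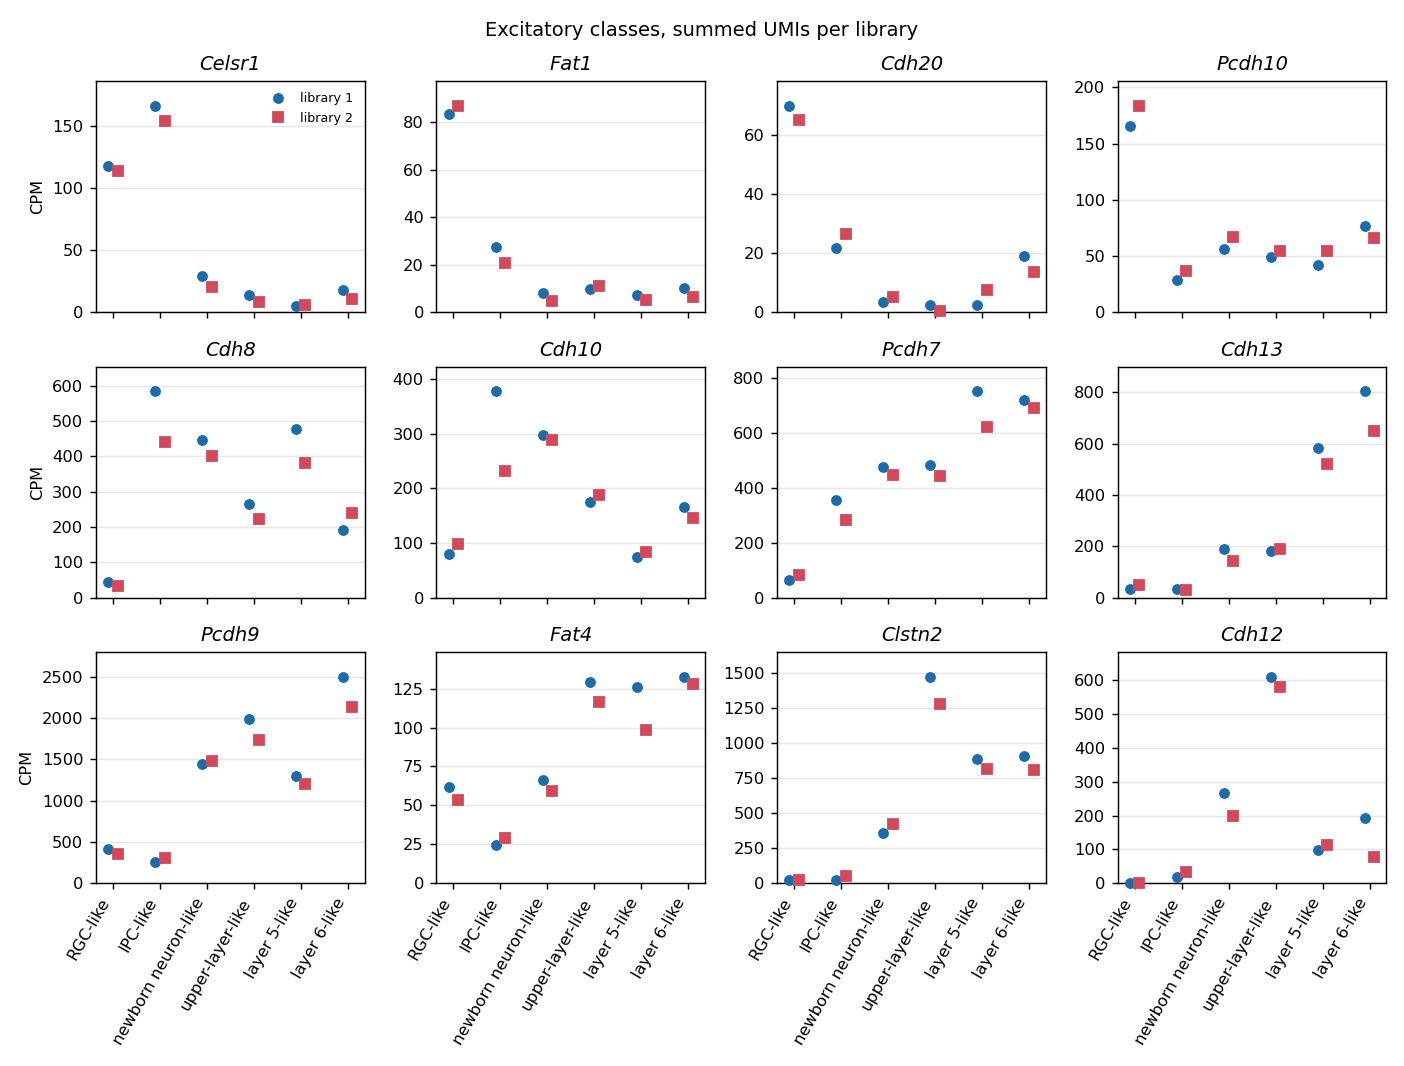
CPM of 12 members in 6 classes ordered from RGC-like through IPC-like and newborn neuron-like to upper-layer, layer 5-like and layer 6-like neurons, with a circle for library 1 and a square for library 2 and a linear axis from 0 in each panel. Cdh8 and Cdh10 have their highest means in the IPC-like class, Cdh12 and Clstn2 in the upper-layer class, and Fat1, Cdh20 and Pcdh10 start highest in RGC-like cells.

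Excitatory neuron-like cells as a whole, taken as the mean of the upper-layer, layer 5-like and layer 6-like classes on the log scale, had 17 members higher and 8 lower than RGC-like cells, against 26.8% and 31.7% of all genes (medians 0.64 and -0.05). *Cdh12* showed the largest fitted rise (log2 fold change 7.81 ± 0.41, adjusted p = 5.98e-22) from the few UMIs of RGC-like cells given above. *Cdh9* had no UMI in RGC-like cells of either library and 130 pooled over the 3 neuron classes. With 3 UMIs over both RGC-like sums as the floor, its CPM pooled over these classes were at least 11.7-fold higher. The edgeR test was on the mean of logs of the 3 classes instead (adjusted p = 8.21e-07). Its mean was 40.0 CPM in layer 6-like and 8.79 CPM in layer 5-like cells, and its lower upper-layer values are given below. *Clstn2* rose from 24.2 and 22 CPM in RGC-like cells to 1469.8 and 1275 CPM in upper-layer neuron-like cells (log2 fold change 5.51 ± 0.22, adjusted p = 1.23e-27 for the 3 classes). *Celsr3* (4.15 ± 0.46), needed for forebrain axon tracts, *Clstn3* (3.53 ± 0.45), *Cdh13* (3.33 ± 0.14), *Pcdh7* (3.08 ± 0.16) and *Cdh8* (2.94 ± 0.18) were the next by log2 fold change.

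Of the 8 members lower in excitatory neuron-like than in RGC-like cells, *Cdh20*, *Celsr1* and *Fat1* had the largest falls. *Cdh20* (log2 fold change -3.65 ± 0.26, adjusted p = 1.13e-16) was at 2.52 and 0.533 CPM in upper-layer neuron-like cells, *Celsr1* (log2 fold change -3.52 ± 0.21, adjusted p = 2.8e-20) at 13.9 and 8.13 CPM and *Fat1* (log2 fold change -3.30 ± 0.18, adjusted p = 1.81e-21) at 9.87 and 11.2 CPM. The others had log2 fold changes of -1.55 ± 0.13 for *Pcdh10*, -1.44 ± 0.21 (-2.21 and -0.70 in library 1 and 2 alone) for *Pcdh15*, -1.01 ± 0.26 for *Pcdh11x*, -0.93 ± 0.16 for *Cdh6* and -0.84 ± 0.13 for *Cdh4*. Not every neuron class lay apart from RGC-like cells, since layer 6-like values overlapped them for *Cdh4*, *Cdh6* and *Pcdh15* and layer 5-like values for *Pcdh11x*. Of members called higher, upper-layer means lay below RGC-like ones for *Pcdh19* (7.35 CPM against 13.5 CPM) and *Cdh11* (45.6 CPM against 51.4 CPM), as did the layer 5-like mean of *Cdh10* (79.2 CPM against 88.9 CPM). Upper-layer values of *Cdh18* and layer 5-like values of *Celsr2* overlapped those of RGC-like cells. Of the 3 seven-pass cadherins *Celsr1* was lower and *Celsr2* (0.59 ± 0.17) and *Celsr3* were higher in neurons than in RGC-like cells. Fat and Dachsous members differed likewise, since *Fat1* was lower while *Fat3* (1.39 ± 0.14), *Fat4* (1.16 ± 0.12) and *Dchs1* (0.97 ± 0.17) were higher.

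Layers were then compared, with deep-layer neuron-like cells taken as the mean of layer 5-like and layer 6-like cells. Relative to upper-layer neuron-like cells, 14 members were higher and 6 lower in the deep layers, against 6.51% and 4.35% of all genes, with medians of 0.31 for the members and -0.05 for all genes. The 6 upper-layer markers, all detected in each layer class, summed to 4376 and 4077 CPM in upper-layer, 1422 and 1229.8 CPM in layer 5-like and 1439 and 1319 CPM in layer 6-like cells, and the 5 layer 5 markers summed to 1473 and 1530.0 CPM in layer 5-like cells. Their part in the layer results was not tested. *Cdh12* was the member with the strongest upper-layer bias, at 610.0 and 579.7 CPM in upper-layer, 99.2 and 114 CPM in layer 5-like and 194 and 77.4 CPM in layer 6-like cells (log2 fold change -2.33 ± 0.15, adjusted p = 3.05e-17). It was also among the leading genes of the upper-layer class. The other members lower in the deep layers were *Cdh4* (-0.77 ± 0.15), *Pcdh8* (-0.74 ± 0.19), which is induced by activity in neurons, *Cdh10* (-0.71 ± 0.14), *Clstn2* (-0.70 ± 0.13) and *Clstn1* (-0.42 ± 0.12), as log2 fold changes. For *Cdh4* only layer 5-like cells (35.5 and 73.1 CPM) lay below upper-layer cells (216 and 218 CPM), and layer 6-like cells (334 and 239 CPM) lay above them in both libraries. With DESeq2 these 5 calls were lost and *Cdh12* was the only member still called lower.

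Deep-layer neuron-like cells had more of 3 chromosome 15 cadherins, *Cdh9*, *Cdh18* and *Cdh6*. *Cdh9* was at 0.84 and 1.6 CPM in upper-layer, 12.2 and 5.33 CPM in layer 5-like and 53.4 and 26.6 CPM in layer 6-like cells (log2 fold change 3.64 ± 0.47, adjusted p = 5.96e-08). *Cdh18* was at 4.2 and 5.33 CPM, 64.9 and 49.5 CPM and 44.2 and 58.9 CPM in the same order (log2 fold change 3.45 ± 0.29, adjusted p = 2.96e-13). *Pcdh19*, whose human counterpart is an X-linked epilepsy gene, went from 6.3 and 8.39 CPM in upper-layer to 50.2 and 44.2 CPM in layer 5-like and 57.5 and 50.0 CPM in layer 6-like cells (log2 fold change 2.70 ± 0.22, adjusted p = 2.47e-14). In *Cdh9*, *Cdh18* and *Pcdh19* both deep classes lay above the upper-layer class. *Cdh13* was at 182 and 189 CPM, 584 and 520.4 CPM and 804 and 651 CPM (log2 fold change 1.75 ± 0.11, adjusted p = 3.35e-18). *Cdh20* (2.76 ± 0.51, 1.25 and 2.88 in library 1 and 2 alone), *Cdh7* (2.75 ± 0.36), *Cdh11* (1.83 ± 0.14) and *Pcdh11x* (1.73 ± 0.33) were the remaining members of the 8 largest log2 fold changes. *Cdh6* was at 25.6 and 24.9 CPM in upper-layer and 81.7 and 72.6 CPM in layer 6-like cells, with a mean of 45.6 CPM in layer 5-like cells (log2 fold change 1.17 ± 0.20, adjusted p = 1.02e-05). *Pcdh17* (1.65 ± 0.20), *Pcdh15* (1.26 ± 0.28), *Pcdh7* (0.57 ± 0.13), *Fat3* (0.53 ± 0.13) and *Cdh2* (0.34 ± 0.11) made up the 14, and *Cdh20* and *Cdh7* were at 21.3 CPM or less in all 3 classes, with layer 5-like and upper-layer values of *Cdh20* that overlapped. With DESeq2 on the same sums, 12 members were higher and 1 lower in the deep layers.

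Between the 2 deep classes 1 member was called higher in layer 5-like neurons and 6 in layer 6-like neurons, against 2.04% and 2.25% of all genes, with medians of -0.32 and -0.02. *Cdh8* was the member higher in layer 5-like cells, at 479 and 383 CPM against 191 and 239.5 CPM (log2 fold change 1.06 ± 0.17, adjusted p = 2.17e-05). *Cdh4* was at 35.5 and 73.1 CPM in layer 5-like against 334 and 239 CPM in layer 6-like neurons (log2 fold change -2.22 ± 0.22, adjusted p = 1.88e-10). *Cdh9* followed with log2 fold change -2.14 ± 0.45, adjusted p = 0.00147. The groups did not overlap in these 3 genes. *Pcdh15* (-1.35 ± 0.37), *Cdh11* (-0.91 ± 0.17), *Cdh10* (-0.87 ± 0.21) and *Pcdh9* (-0.81 ± 0.14), a protocadherin of widespread neuronal expression, were also higher in layer 6-like neurons. With DESeq2, 5 members were called, all lower in layer 5-like cells, and *Cdh8* was not among them. *Cdh2* and *Cdh13* were not called here, with log2 fold changes of -0.22 ± 0.13 and -0.32 ± 0.13.

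Cycling GE progenitor-like cells, of the ventral forebrain, had lower levels of 18 members and higher levels of 6 relative to cortical RGC-like cells, against 18.5% lower and 18.7% higher among all genes. The median was -0.73 for the members and 0.00 for all genes. Of these 2 gates only the GE progenitor-like one asked for cycle genes, so cell cycle and region cannot be told apart in this comparison. *Pcdh15* was at 105 and 45.7 CPM in RGC-like against 3.96 and 11.4 CPM in GE progenitor-like cells (log2 fold change -3.11 ± 0.35, adjusted p = 2.74e-10). *Pcdh8* was at 28.1 and 32.5 CPM against 3.96 and 4.74 CPM (log2 fold change -2.74 ± 0.37, adjusted p = 3.29e-08). *Celsr1* was at 117 and 113 CPM against 16.5 and 18 CPM (log2 fold change -2.70 ± 0.25, adjusted p = 1.38e-12). None of these overlapped. *Cdh6* (-2.23 ± 0.25), *Cdh20* (-2.13 ± 0.31, -2.89 and -1.63 in library 1 and 2 alone), *Cdh10* (-2.10 ± 0.24), *Cdh4* (-1.77 ± 0.18) and *Pcdh7* (-1.73 ± 0.27) were lower by the next largest log2 fold changes. The members called higher in GE progenitor-like cells included *Celsr3* (16.5 and 15.6 CPM against 0.485 and 1.6 CPM, log2 fold change 3.79 ± 0.54, adjusted p = 1.34e-07), *Cdh7* (34.3 and 46.4 CPM against 4.36 and 7.21 CPM, log2 fold change 2.80 ± 0.35, adjusted p = 6.15e-09) and *Clstn2* (113 and 76.2 CPM against 24.2 and 22 CPM, log2 fold change 2.03 ± 0.28, adjusted p = 4.72e-08). *Pcdh9* (1.18 ± 0.15) and *Pcdh11x* (0.96 ± 0.26) were higher as well, and the sixth was *Pcdh20*, at 6.6 and 6.63 CPM. With DESeq2, 5 members were higher and 17 lower, and the call of *Pcdh11x* was among those lost.

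Interneuron-like cells of the medial ganglionic eminence (MGE) are inhibitory neurons that migrate into the cortex. Relative to excitatory neuron-like cells, 7 members were higher and 16 lower in them, against 15.1% and 12.4% of all genes (medians -0.49 and 0.04). *Clstn2* showed the largest difference, at 37.2 and 26.5 CPM in MGE interneuron-like cells and 1469.8 and 1275 CPM in upper-layer neuron-like cells (log2 fold change -5.00 ± 0.21, adjusted p = 1.86e-26 against the 3 excitatory classes). *Cdh12* was at 24.1 and 7.73 CPM in MGE interneuron-like cells (log2 fold change -3.80 ± 0.25, adjusted p = 6.46e-18, -3.19 and -4.31 in library 1 and 2 alone). *Cdh6* (-3.11 ± 0.32, -2.37 and -3.62 in library 1 and 2 alone), *Fat4* (-2.56 ± 0.15), *Fat3* (-1.97 ± 0.15), *Cdh18* (-1.94 ± 0.34), *Pcdh7* (-1.91 ± 0.14) and *Pcdh9* (-1.90 ± 0.13) were lower too. The largest gain was that of *Pcdh15*, at 157 and 179 CPM in MGE interneuron-like, 12.4 and 15.1 CPM in upper-layer, 15.9 and 23.6 CPM in layer 5-like and 52.5 and 59.7 CPM in layer 6-like cells (log2 fold change 2.73 ± 0.18, adjusted p = 3.53e-18). *Pcdh19* was at 82.8 and 91.3 CPM in MGE interneuron-like cells (log2 fold change 1.70 ± 0.15, adjusted p = 2.79e-13), above each excitatory class. *Pcdh11x* (1.57 ± 0.24), *Cdh9* (1.17 ± 0.32), *Pcdh17* (0.96 ± 0.16), *Clstn3* (0.63 ± 0.24) and *Cdh11* (0.34 ± 0.12) made up the 7. With DESeq2, 5 members were higher and 14 lower, and the calls of *Cdh9* and *Cdh11* were among those lost. These folds are against the mean of logs of 3 unequal classes. Layer 6-like neurons stood above MGE interneuron-like cells for *Cdh9* (53.4 and 26.6 CPM against 22.5 and 13.3 CPM) and *Cdh11* (269 and 206 CPM against 154 and 126 CPM). The layer 5-like values overlapped those of MGE interneuron-like cells for *Cdh11* and *Pcdh11x*, no other excitatory class overlapped for *Pcdh11x*, and no class did for *Clstn3*. *Cdh18*, called lower, was at 7.34 and 5.52 CPM in MGE interneuron-like and 4.2 and 5.33 CPM in upper-layer cells, so it was not lower than in that class. For *Pcdh17* the MGE class stood at 126 and 119 CPM and layer 6-like neurons at 75 and 119 CPM.

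Between MGE interneuron-like cells and those of the caudal ganglionic eminence (CGE), 7 members were higher in the MGE class and 6 in the CGE class, against 3.9% and 3.57% of all genes, with medians of 0.13 and 0.00. *Pcdh9* was at 2159 and 2068 CPM in CGE interneuron-like and 517 and 436 CPM in MGE interneuron-like cells (log2 fold change -2.15 ± 0.15, adjusted p = 5.57e-17). *Clstn2* was at 129 and 114 CPM against 37.2 and 26.5 CPM (log2 fold change -1.94 ± 0.26, adjusted p = 7.15e-08). *Cdh9* showed the opposite order with 79 UMIs in the MGE class and 1 in the CGE class, a ratio of 55.3 with a 95% interval of 9.65 to 2213 that covers counting error only (adjusted p = 1.78e-06). *Pcdh8* was at 41.9 and 25.4 CPM in MGE against 8.37 and 6.75 CPM in CGE interneuron-like cells (log2 fold change 2.12 ± 0.33, adjusted p = 3.91e-06), and *Pcdh19* at 82.8 and 91.3 CPM against 24.3 and 17.7 CPM (log2 fold change 2.10 ± 0.23, adjusted p = 3.14e-10). The 2 classes did not overlap in any of these genes. *Cdh8* (1.62 ± 0.20), *Cdh11* (1.33 ± 0.17), *Cdh13* (1.10 ± 0.18) and *Pcdh15* (0.63 ± 0.19) were also higher in the MGE class by log2 fold change. The *Pcdh15* value was 0.08 in library 1 alone and 1.14 in library 2 alone. *Cdh18* (-1.50 ± 0.42, -0.57 and -1.90 in library 1 and 2 alone), *Fat4* (-1.28 ± 0.21), *Cdh4* (-0.60 ± 0.19) and *Cdh2* (-0.45 ± 0.13) were higher in the CGE class. DESeq2 called 6 members higher in MGE and 3 in CGE interneuron-like cells, and the calls of *Pcdh15*, *Cdh18*, *Cdh4* and *Cdh2* were lost.

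**Figure D4:**
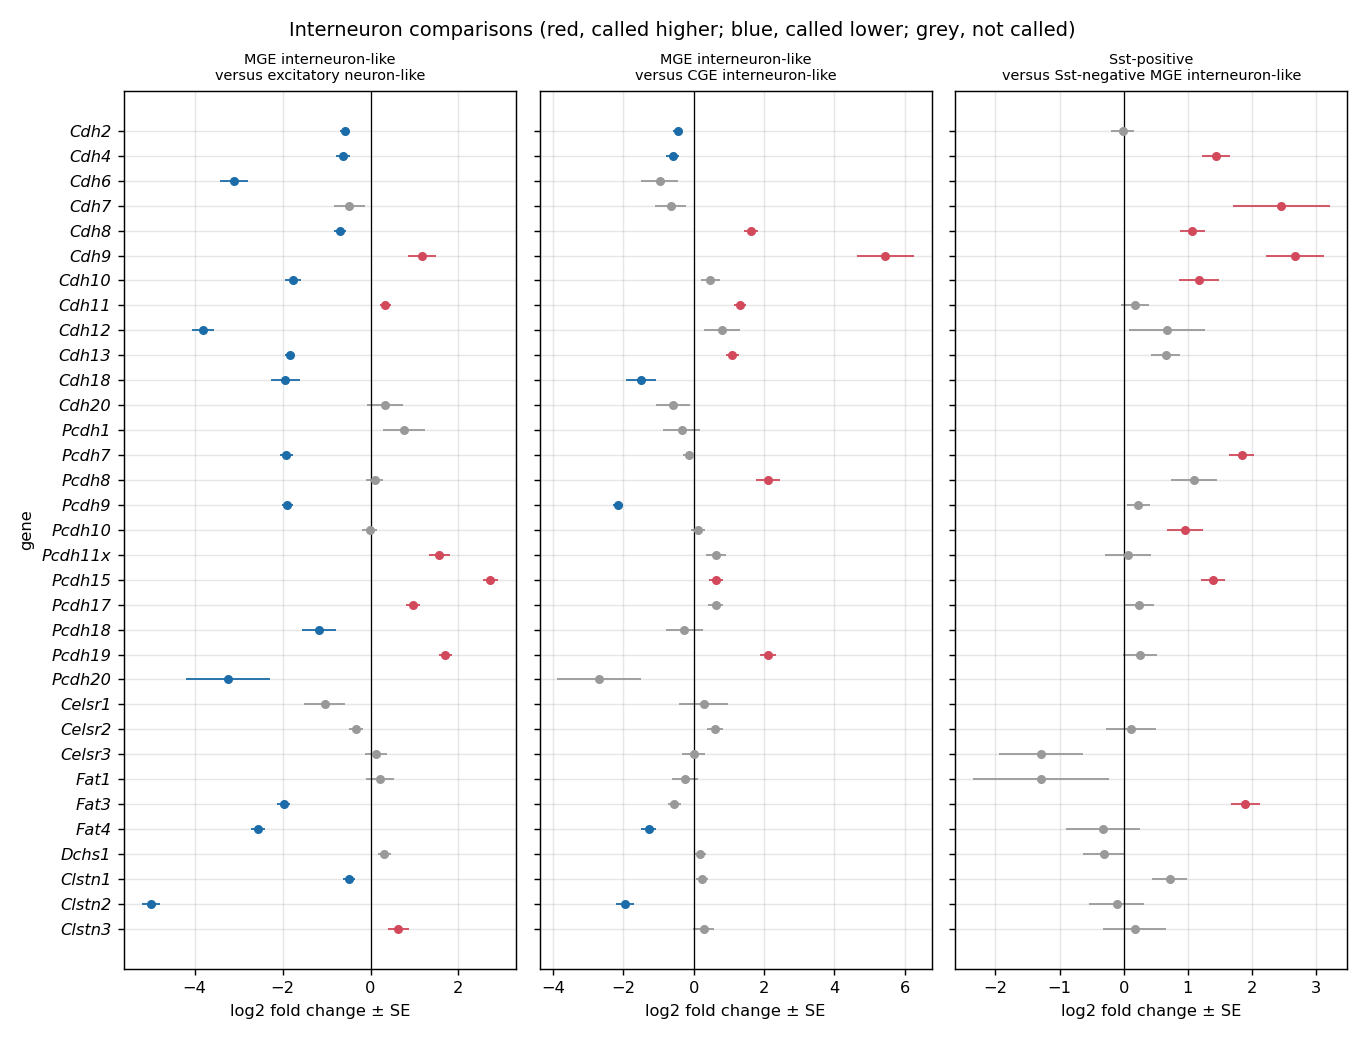
Log2 fold changes of the members (points) with their standard errors (bars), for MGE interneuron-like against excitatory neuron-like cells, against CGE interneuron-like cells, and for Sst-positive against Sst-negative MGE interneuron-like cells, with members called higher in red, called lower in blue and not called in grey. Clstn2 and Pcdh15 lie at opposite ends of the first comparison, and no member is blue in the third, in which 26 were tested.

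MGE interneuron-like cells with at least 2 UMIs of *Sst*, the gene of the peptide somatostatin, were compared with those without any. There were 49 and 62 *Sst*-positive cells, 26 members could be tested, and edgeR called 9 higher and 0 lower in the *Sst*-positive cells, against 2.39% and 1.47% of the 9942 genes tested. At an unadjusted p under 0.05 there were 12 higher and 1 lower, and DESeq2 called 6 higher and 0 lower, with *Cdh10* and *Pcdh10* among the calls lost. The medians were 0.45 for the members and -0.01 for all genes. *Fat3* was at 258 and 157 CPM in *Sst*-positive and 68.3 and 42.5 CPM in *Sst*-negative cells (log2 fold change 1.90 ± 0.23, adjusted p = 1.82e-13). *Pcdh7* was at 614 and 271 CPM against 126 and 105 CPM (log2 fold change 1.84 ± 0.19, adjusted p = 4.54e-19). *Pcdh15* was at 424 and 323 CPM against 127 and 152 CPM (log2 fold change 1.39 ± 0.19, adjusted p = 9.96e-11). *Sst*-positive cells stood above *Sst*-negative cells in both libraries for all 3. *Cdh9* had the largest fold (log2 fold change 2.67 ± 0.45, adjusted p = 5.21e-07), with very different *Sst*-positive levels of 120.0 and 27.1 CPM. *Cdh4* (1.44 ± 0.21, 2.06 and 0.82 in library 1 and 2 alone), *Cdh10* (1.17 ± 0.31), *Cdh8* (1.07 ± 0.19) and *Pcdh10* (0.95 ± 0.28) were called higher as well. *Cdh7* was called, but it was at 0 CPM in the *Sst*-positive cells of library 1 and the libraries disagreed in direction. This fit rested on 4 sums, with a spread taken mainly from all genes together. *Sst*-positive cells had medians of 3998 and 4948 UMIs and *Sst*-negative cells of 3113 and 3518 UMIs, and the part of depth was not tested. The count of 9 fell to 3 when each cell was thinned to 1500 UMIs and to 5 with stricter gates.

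Striatal projection neuron-like cells were present although the labels give cortex as the tissue. Relative to the mean of both cortical interneuron-like classes, 11 members were higher and 4 lower in them, against 6.94% and 6.04% of all genes, with medians of 0.16 and 0.00. *Cdh12* was at 134 and 99.7 CPM in striatal projection neuron-like cells, 24.1 and 7.73 CPM in MGE and 11.4 and 6.23 CPM in CGE interneuron-like cells (log2 fold change 3.37 ± 0.27, adjusted p = 2.22e-14). *Fat3* was at 374 and 384 CPM in the striatal class (log2 fold change 2.07 ± 0.14, adjusted p = 1.51e-17) and *Cdh8* at 344 and 326 CPM (log2 fold change 1.75 ± 0.15, adjusted p = 1.02e-13). All 3 lay above both interneuron-like classes. *Cdh20* (1.83 ± 0.33, 0.95 and 2.29 in library 1 and 2 alone), *Fat1* (1.80 ± 0.25), *Cdh11* (1.20 ± 0.13), *Pcdh10* (1.07 ± 0.16, 0.48 and 1.42 in library 1 and 2 alone) and *Cdh13* (0.67 ± 0.15) were higher too, by log2 fold change. *Cdh13* was at 123 and 132 CPM in the striatal, 118 and 119 CPM in the MGE and 50.2 and 59.2 CPM in the CGE class, so its fold came mainly from the CGE class. The 4 members lower in the striatal class were *Pcdh9* (223 and 272 CPM, log2 fold change -1.99 ± 0.14, adjusted p = 2.98e-16), *Pcdh19* (-1.29 ± 0.26), *Fat4* (-1.28 ± 0.24) and *Pcdh17* (-0.92 ± 0.22), and for *Pcdh19* the striatal values overlapped those of CGE interneuron-like cells. DESeq2 called 8 members higher and 3 lower here, and the call of *Pcdh17* was among those lost. All 5 layer 5 markers and all 5 layer 6 markers were detected in the striatal class, and they summed to 1912 and 1691 CPM and to 2149 and 1949 CPM, against 1473 and 1530.0 CPM in layer 5-like and 3049 and 2511 CPM in layer 6-like neurons. The lists include *Bcl11b* and *Foxp2*, known from striatal projection neurons too, and the 10 striatal markers summed to 7438 and 6582 CPM. The part of the layer markers in these results was not tested.

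Cajal-Retzius-like cells were few, 26 and 44, and 9 members were called higher and 9 lower in them than in excitatory neuron-like cells, against 7.51% and 7.45% of all genes. The median was -0.81 for the members as fitted, -0.67 with 1 member at its bound, and -0.09 for all genes. *Pcdh11x* had the largest rise among the members (947 and 958 CPM against 16.7 and 25.8 CPM in layer 6-like cells, log2 fold change 5.74 ± 0.19, adjusted p = 1.22e-29). *Fat3* was at 1384 and 997 CPM (log2 fold change 1.79 ± 0.13, adjusted p = 5.72e-16), *Pcdh15* at 207 and 163 CPM (log2 fold change 2.63 ± 0.30, adjusted p = 1.03e-09) and *Cdh7* at 72.1 and 95 CPM (log2 fold change 3.07 ± 0.33, adjusted p = 6.22e-10). The Cajal-Retzius-like values of these 4 lay above each of the 3 excitatory classes. *Cdh18* (1.99 ± 0.30), *Fat1* (1.98 ± 0.44), *Cdh4* (1.77 ± 0.17) and *Clstn1* (1.74 ± 0.15) followed, with *Celsr2* (1.11 ± 0.24) as the ninth. *Clstn2* stood at 1447 and 1316 CPM, and was not called (0.26 ± 0.15, adjusted p = 0.271).

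Among the members lower in Cajal-Retzius-like than in excitatory neuron-like cells, *Pcdh9* was at 399 and 253 CPM (log2 fold change -2.70 ± 0.17, adjusted p = 7.58e-18) and *Fat4* at 19.2 and 21.9 CPM (log2 fold change -2.69 ± 0.31, adjusted p = 9.4e-10). The log2 fold changes of the others were -2.23 ± 0.21 for *Pcdh7*, -2.15 ± 0.27 for *Cdh8*, -2.09 ± 0.33 for *Cdh11*, -1.93 ± 0.19 for *Cdh13*, -1.30 ± 0.30 for *Cdh12*, -1.08 ± 0.28 for *Cdh10* and -1.29 ± 0.16 for *Cdh2*. *Cdh12* stood at 159 and 58.5 CPM in Cajal-Retzius-like cells, which overlapped layer 5-like (99.2 and 114 CPM) and layer 6-like cells (194 and 77.4 CPM) and lay below the upper-layer class alone, with -0.52 and -1.54 in library 1 and 2 alone, and its call was lost with DESeq2. *Cdh11* (-1.05 and -2.58 in library 1 and 2 alone) overlapped upper-layer and *Cdh10* layer 5-like cells. *Pcdh17* differed between the libraries of this class, at 125 and 12.2 CPM. Of 6 markers of CGE interneurons 5 were detected, all but *Sp8*, and summed to 538 and 587 CPM in the Cajal-Retzius-like class and its own markers to 6439.7 and 6859.9 CPM. In the same class newborn excitatory neuron markers summed to 831 and 385 CPM and IPC markers to 211 and 39.0 CPM. Both lists were higher in library 1, and upper-layer markers, at 327 and 509 CPM, were higher in library 2. Their part in these results was not tested.

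The oligodendrocyte lineage-like class held 37 and 56 cells and was highest for *Pcdh15*, *Cdh20*, *Pcdh17* and *Pcdh20*. *Pcdh11x* (461 and 417 CPM) and *Cdh10* (220.1 and 149 CPM) were also found there, while *Cdh12* (3.44 and 0 CPM), *Cdh8* (0 and 7.19 CPM) and *Cdh9* (no UMI in either library) were near or at 0. No test was planned for this class, so these are levels only. The 4 markers of the class summed to 1902 and 1789 CPM in it. The 8 RGC markers, all detected, summed to 1513 and 1639.9 CPM, and of 6 MGE interneuron markers 5 were detected, all but *Lhx6*, and summed to 1665 and 1568 CPM, against 2456 and 2547 CPM and 6322 and 6224 CPM in those classes themselves. Their part in these levels was not tested.

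In the vessel wall, mural-like cells (25 and 42) were compared with endothelial-like cells (36 and 85). Of the 33 members 6 were higher and 6 lower in mural-like cells, against 6.4% and 7.34% of all genes, and 11 members were at or under a floor of 3 UMIs in both classes. The median was 0.06 for the members as fitted, 0.96 with 2 members at their bounds and those 11 left out, and -0.06 for all genes. *Clstn2* was at 505 and 599.7 CPM in mural-like and 0 and 1.38 CPM in endothelial-like cells, 281 UMIs against 1, a ratio of 604 with a 95% interval of 107 to 23922 that covers counting error only (adjusted p = 4.36e-16). *Pcdh18* was at 335 and 238 CPM against 0 and 2.76 CPM, 141 UMIs against 2, a ratio of 151 with a 95% interval of 41.1 to 1263 (adjusted p = 4.63e-15). Neither overlapped, and the mural-like *Clstn2* level was also above the 35.6 and 1.45 CPM of erythroid-like cells. *Cdh6* (91.8 and 77.2 CPM against 0 and 6.91 CPM, log2 fold change 4.04 ± 0.68, adjusted p = 7.17e-06), *Fat1* (59.7 and 80.7 CPM against 2.8 and 12.4 CPM, log2 fold change 2.84 ± 0.51), *Cdh4* (2.18 ± 0.65) and *Cdh11* (1.26 ± 0.25), the cadherin first known from bone-forming cells, were higher too.

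Endothelial-like cells had more of 6 members. *Pcdh7* had 44 UMIs in them and 0 in mural-like cells, so it was at least 6.83-fold higher (adjusted p = 0.0016). *Pcdh17* was at 44.8 and 116 CPM in endothelial-like and 0 and 7.01 CPM in mural-like cells, a ratio of 23.3 with a 95% interval of 6.28 to 195 (adjusted p = 6.83e-05). *Cdh13* had 66 UMIs against 1, a ratio of 30.7 with a 95% interval of 5.33 to 1232 (adjusted p = 1.87e-05). The groups did not overlap in these 3 genes. *Fat4* (a ratio of 9.08 with a 95% interval of 2.35 to 77.6) and *Dchs1* (a ratio of 6.29 with a 95% interval of 1.58 to 54.5), receptor and ligand, were called higher in endothelial-like cells, though *Dchs1* was not with DESeq2, as was *Cdh2* by a smaller difference (597 and 644 CPM against 285 and 480.5 CPM, log2 fold change -0.78 ± 0.19, adjusted p = 0.00162). Of 6 endothelial markers 5 were detected in mural-like cells, all but *Kdr*, and they summed to 321 and 386 CPM there and to 7235 and 7673 CPM in endothelial-like cells, and mural markers to 0 and 19.4 CPM in endothelial-like and 9061 and 8280.0 CPM in mural-like cells. The part of mixed cells in these values was not tested.

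Fibroblast-like cells (34 and 91), which carry collagen genes and lie in the meninges and around vessels, had 6 members higher and 6 lower than mural-like cells, against 7.83% and 4.52% of all genes. The median was -0.02 for the members as fitted, -0.26 with 3 members at their bounds and 8 members at or under the floor in both classes left out, and 0.15 for all genes. *Cdh11* was high in both classes and higher in fibroblast-like cells (375 and 382 CPM against 257 and 253 CPM, log2 fold change 0.79 ± 0.19, adjusted p = 0.00282). *Pcdh7* had 109 UMIs in fibroblast-like and 0 in mural-like cells (at least 13-fold higher, adjusted p = 1.08e-05), and *Cdh18* had 91 and 0 (at least 10.9-fold higher, adjusted p = 3.26e-06). *Fat4* was at 81.6 and 81.1 CPM against 0 and 7.01 CPM and *Dchs1* at 19.8 and 28.4 CPM against 4.59 and 3.51 CPM, with ratios of 20.4 with a 95% interval of 5.53 to 171 and 6.45 with a 95% interval of 1.66 to 55.3, and the call of *Dchs1* was lost with DESeq2. *Pcdh9* was the sixth (143 and 119 CPM against 41.3 and 14 CPM, log2 fold change 2.52 ± 0.48).

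*Cdh2* was lower in fibroblast-like than in mural-like cells (17.6 and 30.5 CPM against 285 and 480.5 CPM, log2 fold change -3.69 ± 0.30, adjusted p = 2.33e-14). *Pcdh1*, a protocadherin known from epithelia, was at 50.5 and 77.2 CPM in mural-like, 53.2 and 78.8 CPM in endothelial-like and 0 and 1.05 CPM in fibroblast-like cells, a ratio of 92.1 with a 95% interval of 15.4 to 3746 between mural-like and fibroblast-like cells (adjusted p = 2.57e-07). *Clstn2* (6.61 and 39 CPM, log2 fold change -4.08 ± 0.34, adjusted p = 8.86e-14) and *Pcdh18* (50.7 and 40.0 CPM, log2 fold change -2.46 ± 0.30, adjusted p = 6.89e-09) were lower in fibroblast-like cells as well. Neither overlapped the mural-like values. *Pcdh19* (0 and 5.26 CPM against 101 and 56.1 CPM, log2 fold change -4.18 ± 0.62) and *Cdh6* (8.82 and 34.7 CPM against 91.8 and 77.2 CPM, log2 fold change -1.47 ± 0.45) made up the 6. Mural markers summed to 1358 and 807 CPM in fibroblast-like cells and fibroblast markers to 381 and 691 CPM in mural-like cells, against 6275 and 7058 CPM in fibroblast-like cells, and their part was not tested. With likely doublets removed, 4 members were higher and 7 lower.

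**Figure D5:**
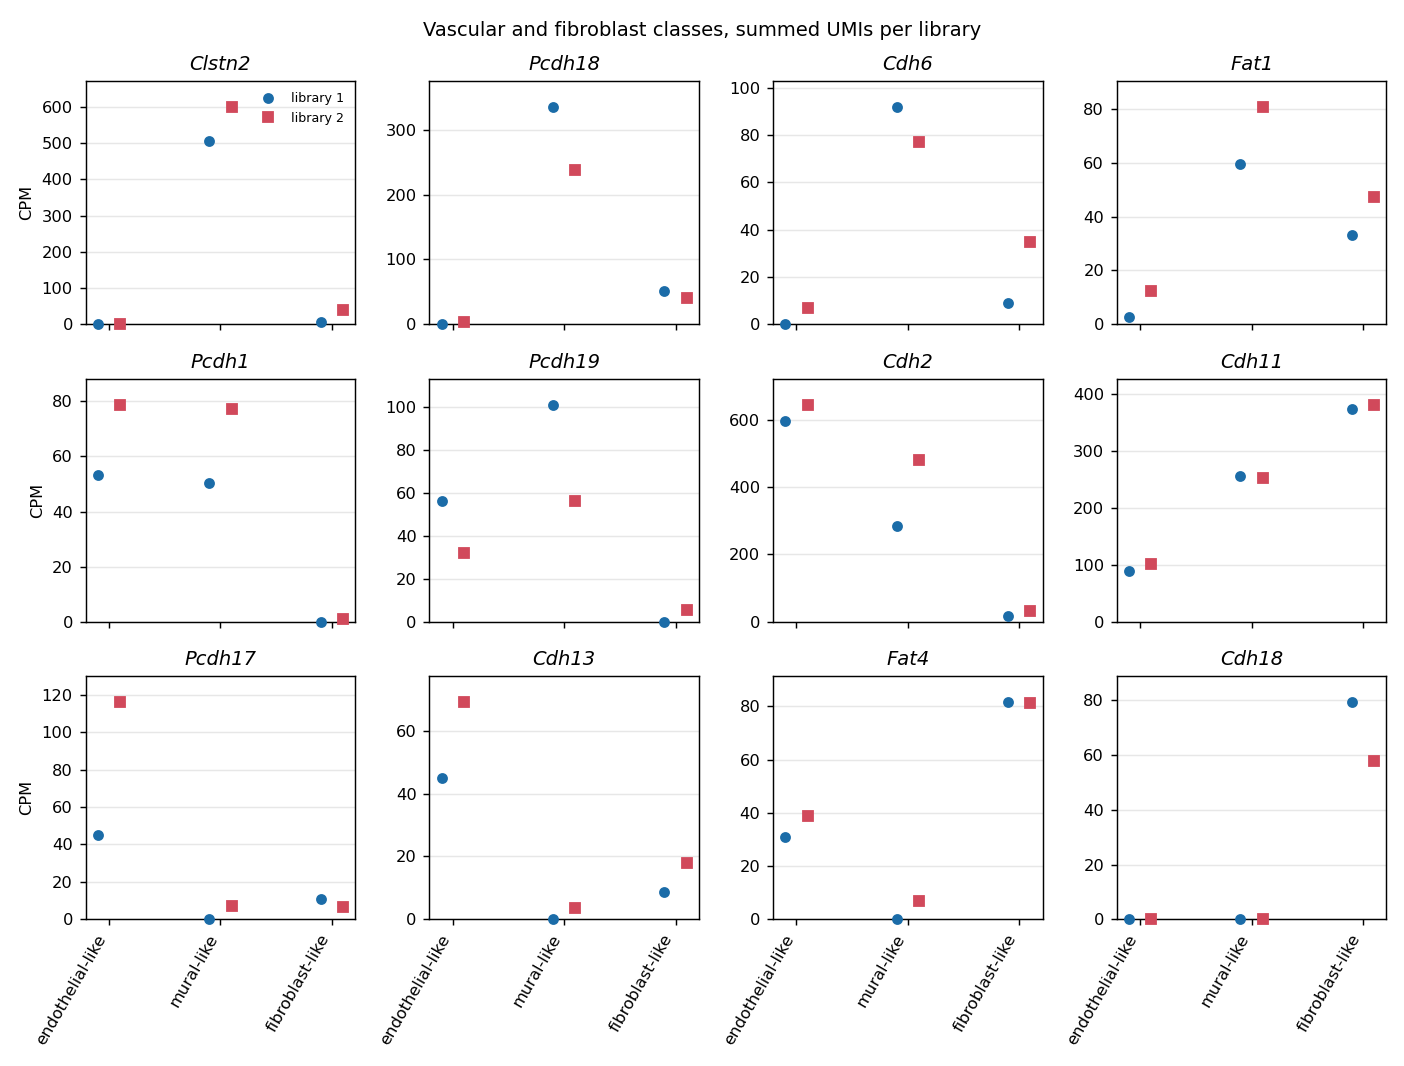
CPM of 12 members in endothelial-like, mural-like and fibroblast-like cells, with a circle for library 1 and a square for library 2 and a linear axis from 0 in each panel. Pcdh18 and Clstn2 are high in mural-like cells in both libraries, Cdh11 is highest in fibroblast-like cells, and Fat4 is lowest in mural-like cells.

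Partner genes and further cadherins were counted in the same comparisons. Tested were 13 catenins and other partners of cadherins, 12 of 13 planar polarity partners of Celsr and Fat proteins and 6 of 11 other cadherins. Between excitatory neuron-like and RGC-like cells, where 26.8% and 31.7% of all genes were called higher and lower, the counts were 5 higher and 6 lower for the catenin list, 2 higher and 6 lower for the planar polarity list and 3 lower for the other cadherins. The median log2 fold changes of these lists were 0.00, -0.35 and -0.78, beside -0.05 for all genes. In IPC-like against RGC-like cells the counts were 2 higher and 5 lower for the catenin list and 3 higher and 4 lower for the planar polarity list, beside 15.8% and 19.6% of all genes, and edgeR called 0 higher and 0 lower of the other cadherins (at an unadjusted p under 0.05, 0 higher and 2 lower, and with DESeq2 0 and 0). In MGE interneuron-like against excitatory neuron-like cells they were 2 higher and 3 lower and 2 higher and 3 lower, beside 15.1% and 12.4% of all genes, with 2 of the other cadherins higher, *Cdh22* and *Cdh23*. In striatal projection neuron-like against cortical interneuron-like cells they were 3 higher and 3 lower and 4 higher and 1 lower, beside 6.94% and 6.04% of all genes, and edgeR called 0 higher and 0 lower of the other cadherins (at an unadjusted p under 0.05, 0 higher and 1 lower, and with DESeq2 0 and 0). In mural-like against endothelial-like cells they were 2 higher and 7 lower and 5 higher and 1 lower, beside 6.4% and 7.34% of all genes, with medians of -0.84 and 0.59 against -0.06, and 1 of the other cadherins was lower.

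The receptor *Fat4* and its ligand *Dchs1* were both present in neurons. *Fat4* was at 133 and 128 CPM in layer 6-like, 129.5 and 116 CPM in upper-layer and 22.5 and 18.8 CPM in MGE interneuron-like cells. *Dchs1* was at 38.4 and 54 CPM, 48.5 and 44.1 CPM and 63.4 and 50.5 CPM in the same classes. In the comparison of MGE interneuron-like with excitatory classes *Fat4* was called lower (log2 fold change -2.56 ± 0.15, adjusted p = 1.55e-19), and *Dchs1* was not called (0.32 ± 0.14, adjusted p = 0.0962). Neither had a UMI in erythroid-like cells.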

How the data were processed

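Poly(A) RNA of single cells from WT E16.5 mouse cerebral cortex was measured in 2 libraries. The authors deposited raw UMI counts per gene and barcode, made with Cell Ranger (version 7.0.0 per the labels, 7.1.0 per the file headers) on mm10, and no normalization was applied to them. Whether intronic reads were counted is not given in the sources used here. Cells with 1500 to 60000 UMIs and under 10% mitochondrial UMIs were kept and assigned to classes by marker UMIs, without clustering. No member is a marker. A cell had to hold 2 to 4 or more of its class's markers and to lack those of other lineages, with at most 1 GABAergic or excitatory marker UMI where these define the other lineage. Erythroid-like cells had 10% or more globin UMIs. Cells that passed several gates (5 and 8) were left out, as were subplate-like cells (5 and 2). Doublets were kept, and in an alternative the 432 and 1111 cells with the highest Scrublet scores (scanpy 1.11.5) were removed.

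The UMIs of all cells of a class were added up within each library, and the 34 sums of 17 classes entered 1 edgeR 4.0.16 quasi-likelihood fit in R 4.3.3 (TMM, library as a block, a filter of 10 or more counts in 2 or more sums, 14542 genes tested). The library is the block because each library gives 1 sum to every class, and its cells share embryos, dissociation and capture. The *Sst* comparison was fitted on its own 4 sums. P-values were adjusted over all genes tested. Where a class held 1 to 3 UMIs of a member, the ratio of pooled UMIs is given with an exact 95% interval. Where it held none, the fold is against a floor of 3 UMIs over both libraries. Intervals and floors cover counting error only. The fit was also run on simulated sums with known fold changes. There all classes started from the same profile and only genes with many counts were changed. That run therefore does not cover members with few UMIs or classes that differ in many genes. The 166 named fold changes are of called members that reached 10 CPM in the class where they were higher. These members moved the same way in each library, and at most 8 were taken for each direction. Values of some other members, called or not, are given too and are not among the 166. Members, lists and comparisons were chosen with earlier results of these data known. Alternatives were DESeq2 1.42.0, other size factors, no low-count filter, no replicate block, only the compared classes, stricter gates, doublet removal, cells thinned to 1500 UMIs, and each library alone. Promoter windows and gene positions are those of RefSeq for GRCm38.p6, the build family of mm10, matched by symbol.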

Additional observations from a re-analysis of the deposited data

How the results depend on the processing

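The counts of members called kept within 1.5 times of those in the text under most alternatives. The exceptions were 14 members for newborn neuron-like against IPC-like cells, 7 for mural-like against endothelial-like cells, 6 for fibroblast-like against mural-like cells and 3 for *Sst*-positive against *Sst*-negative cells when each cell was thinned to 1500 UMIs, 13 for deep-layer against upper-layer neuron-like cells with DESeq2, and 5 for the *Sst* comparison with stricter gates. Thinning leaves fewer counts by construction, and the cause of the other shifts was not tested. The share of higher among the called members moved by over 10 points with thinning for IPC-like against RGC-like cells (5 higher, 12 lower), with DESeq2 for mural-like against endothelial-like cells (8 and 5), and in the cases given beside their results. The median of all genes moved by over 0.1 for Cajal-Retzius-like cells with DESeq2 (0.12), no low-count filter (-0.11) and thinning (-0.20), for fibroblast-like against mural-like cells with DESeq2 (-0.10), no filter (-0.11) and only the compared classes (-0.12), and for the *Sst* comparison with no filter (-0.28). Stricter gates left too few Cajal-Retzius-like cells for a value. Of 166 named fold changes, none reversed in any of 1299 tested alternative values, 80 of these values did not pass the threshold, and 119 fold changes passed it in every alternative. Calls lost under 3 or more alternatives were those of *Cdh11*, *Cdh9* and *Clstn3* in MGE interneuron-like against excitatory neuron-like cells, *Cdh4* and *Cdh18* in MGE against CGE interneuron-like cells, *Clstn1* in the deep layers, and *Cdh10* and *Pcdh10* in *Sst*-positive cells. The named members had the same direction in each library by the rule that chose them. Their values in 1 library, differences of log2(CPM + 1) with no test, were more than 1 SD of the libraries from the fitted ones in 43 of the 166 without library 1 and 58 without library 2, where the other scale adds to the shift for low members. On the log2(CPM + 1) scale 28 of the 166 lay over 1.5 times from the mean of both libraries in each. The difference in log2(CPM + 1) of *Pcdh15* between MGE and CGE interneuron-like cells was 1.14 without library 1 and 0.083 without library 2. Without the replicate block, which sets each library's sums side by side, the members called were 20 for IPC-like against RGC-like cells, 21 for newborn neuron-like cells, 25 for excitatory against RGC-like cells, 19 for the layers, 7 for layer 5-like against layer 6-like cells and 6 for the *Sst* comparison, and the other comparisons likewise stayed within 1.5 times. With likely doublets removed 31 of 33 members kept their highest class, and *Cdh6* and *Pcdh1* were then highest in mural-like cells. By shares of thinned cells with a UMI 26 did, and *Cdh8* and *Cdh10* were then highest in newborn neuron-like and *Clstn2* in upper-layer neuron-like cells. The few cells of the Cajal-Retzius-like, vascular and *Sst*-positive classes set the depth of their values.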
